A study of Mus musculus with 2 samples.

Results

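The genes described here are the chemokines and chemokine receptors, taken by symbol: every gene model whose name is Ccl, Cxcl, Ccr, Cxcr, Xcr or Ackr followed by a number and at most 1 letter, together with Xcl1, Cx3cl1, Cx3cr1 and Ccrl2. That gave 67 of 34745 gene models, under 62 symbols, since 6 models lie on unplaced scaffolds. Of the 67, 44 are ligands, 18 are signalling receptors and 5 are atypical receptors. Transcript levels come from RNA sequencing of haematopoietic progenitor and stem cells of the mouse, which carried 1 of 2 forms of PML/RARa, the fusion oncoprotein of acute promyelocytic leukaemia. One form is the wild type (WT) and the other is the form labelled 2KR. The series title speaks of lysines in the fusion, and the sources used here do not give the exact change in 2KR. Both groups came from femoral marrow of C57BL/6 mice that had received 5-fluorouracil, enriched for progenitors with a mouse isolation kit. Both were transduced with lentivirus in 6 µg/ml polybrene, with a spin at 1800 rpm for 40 min. A culture of 24 h is given for both. Both were grown in IMDM with 20% fetal bovine serum, SCF at 50 ng/ml, IL-3 and IL-6 at 10 ng/ml each, hydrocortisone and 2-mercaptoethanol, and were sorted for transduced cells. How many mice were pooled, their age and the promoter driving the fusion are not stated in these sources. The empty pMSCV vector arm was not analysed here.

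Chemokines are small secreted proteins that guide the movement of leukocytes, and their names follow the spacing of the conserved cysteines at the amino terminus (C, CC, CXC or CX3C). They act on receptors of the G protein-coupled class that signal through inhibitory G proteins to the actin cytoskeleton and integrins. Atypical receptors bind chemokines without this signalling and clear or present them. In bone marrow the ligand Cxcl12 and its receptor Cxcr4 hold stem and progenitor cells in place, Cxcr2 and Ccr2 take part in the exit of neutrophils and monocytes, and myeloid cells are themselves a source of inflammatory chemokines.

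Each form had 1 library, so no difference has a replicate check and no p-value was computed. The libraries held 17606168 counts (WT) and 20462011 counts (2KR). Levels are given as raw counts and as CPM, counts scaled to library size with the TMM method. Every fold is a ratio of CPM with its exact 95% interval, which covers counting error only. A gene model was tested when its mean over both libraries was at least 1 CPM, and it was called different when the log2 ratio of CPM + 1 was at least 1 in size, that is 2-fold. The labelled cell type was checked against marker lists. All 10 progenitor markers were tested, with a summed level of 4308 CPM in WT and 4616 in 2KR, and none was called different. Endothelial and stromal markers summed to 1107 and 1144 CPM, led by Pecam1 (550 and 669) and Pdgfrb (543 and 451). Neutrophil markers summed to 61.9 and 66.0 CPM, and dendritic cell markers to 30.8 and 48.2. Erythroid markers summed to 19.0 and 27.2 CPM, and eosinophil markers to 3.26 and 2.62. B cell markers summed to 0.801 and 1.46 CPM. T and NK cell markers summed to 15.4 and 23.8 CPM, with 4 of 10 tested. Of these Lck, a kinase of the T cell receptor, was called higher in 2KR (111 and 367 counts). Cd3g had 72 and 40 counts, Trac 27 and 32, and Klrb1c 47 and 49. Cd3e, which was not tested, was at 0 in both libraries. Mast cell and basophil markers summed to 7315 and 3891 CPM, of which Cpa3 alone had 5468 and 2525. Of 8 tested markers 6 were at least 2-fold lower in 2KR and 1, Mcpt8 (3324 and 9269 counts), was higher. Over all tested models 4.56% were lower and 2.66% higher.

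In the 2KR library 4 receptor genes and 1 ligand gene lay 2-fold or more below WT, and 1 ligand gene lay 2-fold or more above it. The lower ones were the receptors Ccr8, Ccr1, Cx3cr1 and Ccr2 and the ligand Ccl6, and the higher one was the ligand Cxcl3. Of the 67 members, 32 had no count in either library, 12 had 1 to 9 counts at most, and 23 had at least 10 counts in one or both libraries. A total of 35 members (52.2%) had at least 1 count, against 50.8% of all gene models. The filter passed 22 members, and 5 of these (22.7%) were at least 2-fold lower in 2KR, against 4.56% of all 12466 tested models. On the other side 1 of 22 (4.55%) was at least 2-fold higher, against 2.66%. In either direction this is 6 of 22 (27.3%), against 7.22%. The ratio was below 1 in 17 of the 22 (77.3%), against 47.7% of all tested models. The median log2 ratio of the 22 was -0.58, against 0.02 for all tested models, whose quartiles were -0.21 and 0.23. Of the 22 members 3 (Ccr8, Ccr1 and Cxcl1) were below 1 CPM in 2KR and passed through WT. The filter therefore favoured differences in these 3 genes. With no filter, 5 of 67 members were lower and 1 was higher, against 1.73% lower and 1.00% higher of all 34745 models, and the members' median was 0.00.

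**Figure D1:**
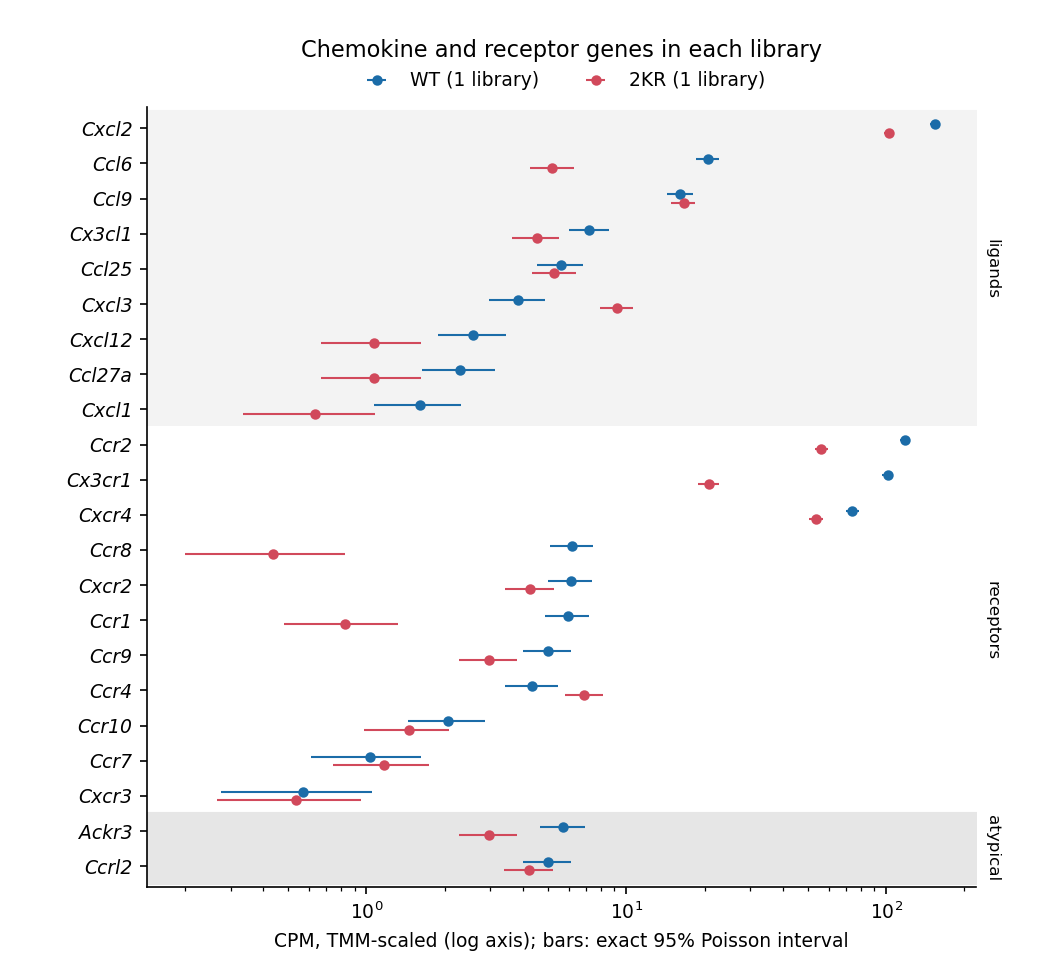
Level of 22 of the 23 members with at least 10 counts in one or both libraries, in CPM on a log axis. Points are single libraries of WT (blue) and 2KR (red), bars are exact 95% Poisson intervals, and shading separates ligands, receptors and atypical receptors. The points of Cxcl2, Ccr2, Cx3cr1 and Cxcr4 lie far to the right of most others, and those of Ccr8 and Ccr1 are the farthest apart.

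The members were represented unevenly. Cxcl2, Ccr2, Cx3cr1 and Cxcr4 held 81.0% of the members' counts in WT and 76.4% in 2KR. All members together had 9648 counts (552 CPM) in WT and 6280 counts (305 CPM) in 2KR. The summed level of the receptors was 326 CPM in WT and 151 in 2KR, and that of the ligands was 215 and 147 CPM. Both sums over genes taken by symbol were thus lower in 2KR, the receptors' sum by the larger factor. The ligand sum leaves out Pf4, Ppbp, Mif and Cklf, which carry other names. These 4 summed to 218 CPM in WT and 532 in 2KR, with Pf4 at 121 and 406 CPM. The lower ligand sum therefore holds for the genes taken by symbol and not for all chemokines.

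Levels of different genes were compared per length, on the authors' FPKM scale. In WT the order was led by Cxcl2 at 29.6 FPKM, followed by Cxcr4 at 27.2, Cx3cr1 at 14.6, Ccr2 at 8.36 and Ccl6 at 8.01. The median over tested models was 6.11 FPKM in WT, so these 5 genes lay above it. In 2KR, Cxcr4 was at 19.97 and Cxcl2 at 19.96 FPKM. Ccl9 followed at 5.19, Ccr2 at 4.03 and Cx3cr1 at 3.03 FPKM, all below the 2KR median of 6.17. Ccr8 was at 5.31 FPKM in WT and at 0.380 FPKM in 2KR. These levels depend on the length behind the deposited FPKM, which for some genes exceeds the exonic length in GENCODE M21. It was 5.16 against 2.07 kb for Cxcl2, 14.04 against 6.76 kb for Ccr2, and 2.71 against 1.81 kb for Cxcr4. With exonic lengths, an alternative chosen after seeing the data, the same 5 genes led in WT in the same order. Cxcl2 was then at 73.7 and Cxcr4 at 40.7 FPKM in WT, and at 49.8 and 29.9 in 2KR. Ccr2 was at 17.4 (16.6 to 18.1) and Ccl6 at 11.4 (10.2 to 12.6) in WT. In 2KR Ccr2 was then at 8.37 (7.90 to 8.87), above Ccl9 at 5.49 (4.92 to 6.10). The closeness of Cxcl2 to Cxcr4 in 2KR and of Ccr2 to Ccl6 in WT was therefore seen with the deposited lengths and not with the exonic ones. The same holds for the place of Ccl9 ahead of Ccr2 in 2KR. The median over tested models was not recomputed with exonic lengths.

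Some of these genes are close copies that lie side by side, and their start regions are shown first because neighbours differed in their ratios. Ccl6 and Ccl9 encode rodent CC chemokines that bind Ccr1. They lie on the minus strand of chromosome 11, 9.25 kb apart, and their promoters share 62.3% of 244 aligned bases. Sequences are RefSeq promoters on GRCm38.p6, from 250 bases before to 50 after the transcription start, read 5′ to 3′ along the gene. Capitals mark matches on either strand to 4 motifs: AP-1 (TGANTCA), C/EBP (TTGCNNAA), the hexamer bound by retinoic acid receptors (AGGTCA) and the NF-kB consensus.
Ccl6 (chr11:83593038-83593337): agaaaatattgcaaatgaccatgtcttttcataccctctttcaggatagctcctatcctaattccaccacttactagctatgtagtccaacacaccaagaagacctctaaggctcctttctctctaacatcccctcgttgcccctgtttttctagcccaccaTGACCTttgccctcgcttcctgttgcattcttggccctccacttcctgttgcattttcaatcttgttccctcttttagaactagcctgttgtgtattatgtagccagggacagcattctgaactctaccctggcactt
Ccl9 (chr11:83578587-83578886): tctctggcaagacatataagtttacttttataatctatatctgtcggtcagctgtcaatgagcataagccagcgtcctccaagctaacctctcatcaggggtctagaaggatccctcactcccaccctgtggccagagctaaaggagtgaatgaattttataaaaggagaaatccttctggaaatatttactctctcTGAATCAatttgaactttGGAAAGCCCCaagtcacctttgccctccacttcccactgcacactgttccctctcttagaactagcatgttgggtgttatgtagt
The Ccl6 window held the retinoic acid receptor hexamer, as TGACCT, 88 bases before the start. The Ccl9 window held an AP-1 match, TGAATCA, 53 bases before the start, and an NF-kB match, GGAAAGCCCC, at 35 bases. A match is a run of letters and not a shown binding site.

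Cxcl1, Cxcl2 and Cxcl3 encode CXC chemokines that attract neutrophils through Cxcr2, and they lie on the plus strand of chromosome 5. They are shown because all 3 windows hold the same NF-kB match while the genes did not differ in the same direction.
Cxcl1 (chr5:90890995-90891294): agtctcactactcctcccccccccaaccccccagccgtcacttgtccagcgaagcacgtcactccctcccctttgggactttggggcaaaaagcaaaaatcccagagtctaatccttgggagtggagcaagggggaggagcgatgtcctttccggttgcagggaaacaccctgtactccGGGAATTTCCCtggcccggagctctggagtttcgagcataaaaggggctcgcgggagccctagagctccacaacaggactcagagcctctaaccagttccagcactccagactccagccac
Cxcl2 (chr5:90903649-90903948): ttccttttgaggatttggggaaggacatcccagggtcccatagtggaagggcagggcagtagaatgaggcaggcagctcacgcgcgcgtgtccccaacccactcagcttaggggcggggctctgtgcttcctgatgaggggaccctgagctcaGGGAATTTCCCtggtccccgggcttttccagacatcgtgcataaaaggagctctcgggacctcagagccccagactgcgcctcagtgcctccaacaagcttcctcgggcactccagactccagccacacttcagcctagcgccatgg
Cxcl3 (chr5:90785851-90786150): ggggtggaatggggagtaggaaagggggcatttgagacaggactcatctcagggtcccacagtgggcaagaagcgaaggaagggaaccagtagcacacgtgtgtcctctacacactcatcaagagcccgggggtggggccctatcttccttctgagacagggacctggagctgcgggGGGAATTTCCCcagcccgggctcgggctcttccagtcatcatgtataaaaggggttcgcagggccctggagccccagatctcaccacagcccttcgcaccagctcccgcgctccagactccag
The letters GGGAATTTCC began 71 bases before the start in Cxcl1, 97 in Cxcl2 and 73 in Cxcl3, and in each they overlap a match on the other strand shifted by 1 base. The Cxcl2 and Cxcl3 windows share 72.1% of 265 aligned bases. Of all 32851 promoters 4.51% held the NF-kB consensus, 7.81% AP-1, 10.8% C/EBP and 16.3% the AGGTCA hexamer. Of the 23 members with at least 10 counts, 20 had an entry, with 25 promoters in all. Of these 25, 6 held NF-kB, 3 AP-1, 3 C/EBP and 4 the AGGTCA hexamer. The windows of Ccr1, Ccr2, Ccr8 and Cx3cr1 held none of the 4 motifs, which says only that these letters are not in those windows.

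**Figure D2:**
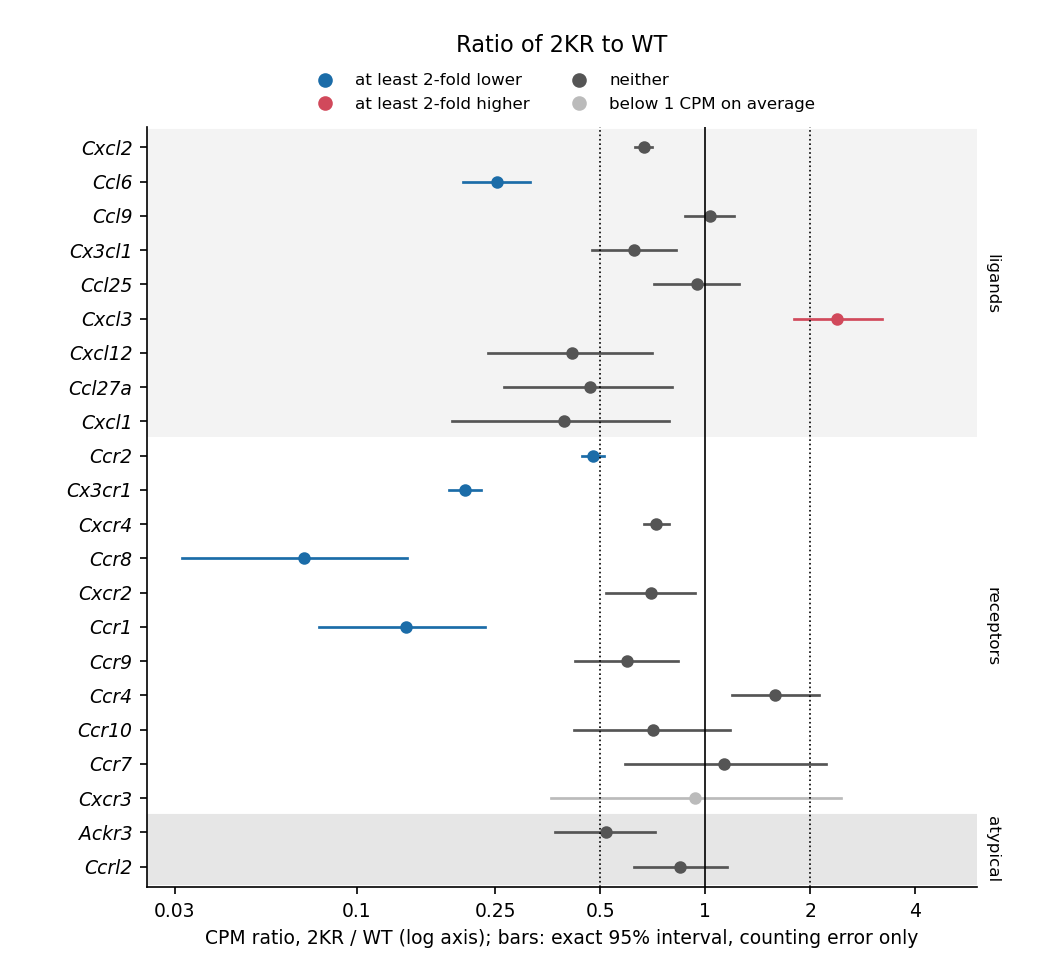
Ratio of CPM, 2KR over WT, for the same 22 members on a log axis, with exact 95% intervals for counting error. Dotted lines mark 2-fold. Ccr8, Ccr1, Cx3cr1, Ccl6 and Ccr2 (blue) lie to the left of the lower line and Cxcl3 (red) lies to the right of the upper line.

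Among the CC ligands, Ccl6 (ENSMUSG00000018927, chromosome 11, 83587882 to 83593087 in GRCm38) had 359 counts in WT against 107 in 2KR, which is 20.5 and 5.19 CPM. It was 3.95-fold lower in 2KR (3.18 to 4.95). Its neighbour Ccl9 (ENSMUSG00000019122, 83572919 to 83578636) had 282 and 342 counts, or 16.1 and 16.6 CPM, a ratio of 1.03 (0.876 to 1.21). The copy on one side of the pair was thus lower in 2KR while the other stayed within counting error of a ratio of 1. Ccl6 shares none of its 50-base words with other transcripts and Ccl9 shares 1.97% of them, so reads of the pair can be told apart. None of the 16 other tested genes within 500 kb of this cluster was called different, against 7.22% of all tested models. Their median log2 ratio was -0.01.

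The remaining CC ligands were low. Ccl25, which acts on Ccr9 in thymus and gut, had 98 and 109 counts, a ratio of 0.944 (0.712 to 1.25), and did not differ beyond counting error. However, its exons share 204 bases with Elavl1 on the opposite strand, which had 2135 and 2901 counts. The strand setting is not stated, so the Ccl25 count is uncertain. Ccl27a, a skin chemokine, had 40 and 22 counts, but 45.0% of its 50-base words occur in other genes, copies of it among them, so its count is uncertain. The inflammatory ligands Ccl3, Ccl4 and Ccl5, which act on Ccr1 among other receptors, had 9, 3 and 6 counts in WT and 3, 0 and 3 in 2KR. The monocyte attractants Ccl2, Ccl7 and Ccl12, ligands of Ccr2, had no count in either library. A count of 0 allows up to 0.172 CPM in WT and 0.146 CPM in 2KR, taking 3 counts as the limit.

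The 3 tested CXC ligands of the cluster on chromosome 5 did not all differ in the same direction, and a relation to their place there was not tested. Cxcl2 (ENSMUSG00000058427, 90903871 to 90905938), the ligand with the most counts among the 67 genes taken by symbol, had 2683 and 2106 counts, or 153 and 102 CPM, and was 1.501-fold lower in 2KR (1.42 to 1.59), under the 2-fold rule. Cxcl1 had 28 and 13 counts and was 2.54-fold lower by CPM (1.27 to 5.34). It was not called because adding 1 CPM brings its log2 ratio to -0.67. Cxcl3 (ENSMUSG00000029379, 90786103 to 90789600) had 67 and 189 counts, or 3.83 and 9.17 CPM, and was 2.39-fold higher in 2KR (1.80 to 3.21). The log2 ratio of Cxcl3 was 1.07, and with 5 CPM added in place of 1 it was 0.68, short of the rule. The deposited FPKM values, 0.843 and 2.05, gave a 2.43-fold higher level, and adding 1 FPKM brought that log2 ratio to 0.72. Cxcl2 shares 5.84% of its 50-base words and Cxcl3 4.29%, mostly with each other. Most of the sequence therefore tells them apart.

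Cxcl3 has 2 CXC chemokine neighbours that carry other names, both proteins of platelet granules. Pf4 (platelet factor 4, also called Cxcl4) lies 12.7 kb from Cxcl3 and had 2119 and 8367 counts, or 121 and 406 CPM, 3.35-fold higher in 2KR (3.19 to 3.52). Ppbp (Cxcl7) had 167 and 519 counts and was 2.64-fold higher (2.21 to 3.16). Thus Ppbp, Pf4 and Cxcl3 were higher in 2KR, and Cxcl1 and Cxcl2, which begin 102 kb beyond Cxcl3, had ratios below 1. Over all tested models 2.66% were at least 2-fold higher. Pf4 and Ppbp were also the 2 of 6 tested megakaryocyte and platelet markers that were at least 2-fold higher. That list summed to 1041 CPM in WT and 1360 in 2KR, with Treml1 at 0 in both, and its part in these ratios was not tested. Cxcl5 and Cxcl15, of the same cluster, had no count.

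Of the other ligands, Cx3cl1 (fractalkine), which is made as a membrane-bound protein, had 126 and 93 counts and was 1.60-fold lower in 2KR (1.21 to 2.11). Cxcl12 had 45 and 22 counts, or 2.57 and 1.07 CPM, 2.41-fold lower by CPM (1.42 to 4.22), but like Cxcl1 it did not pass the rule. The interferon-induced ligands Cxcl9 and Cxcl11 had no count and Cxcl10 had 3 and 2, while Cxcl16 had 4 and 9. The lymphoid ligands Ccl19 and Ccl21a had no count, and Cxcl13 had 4 and 1.

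**Figure D3:**
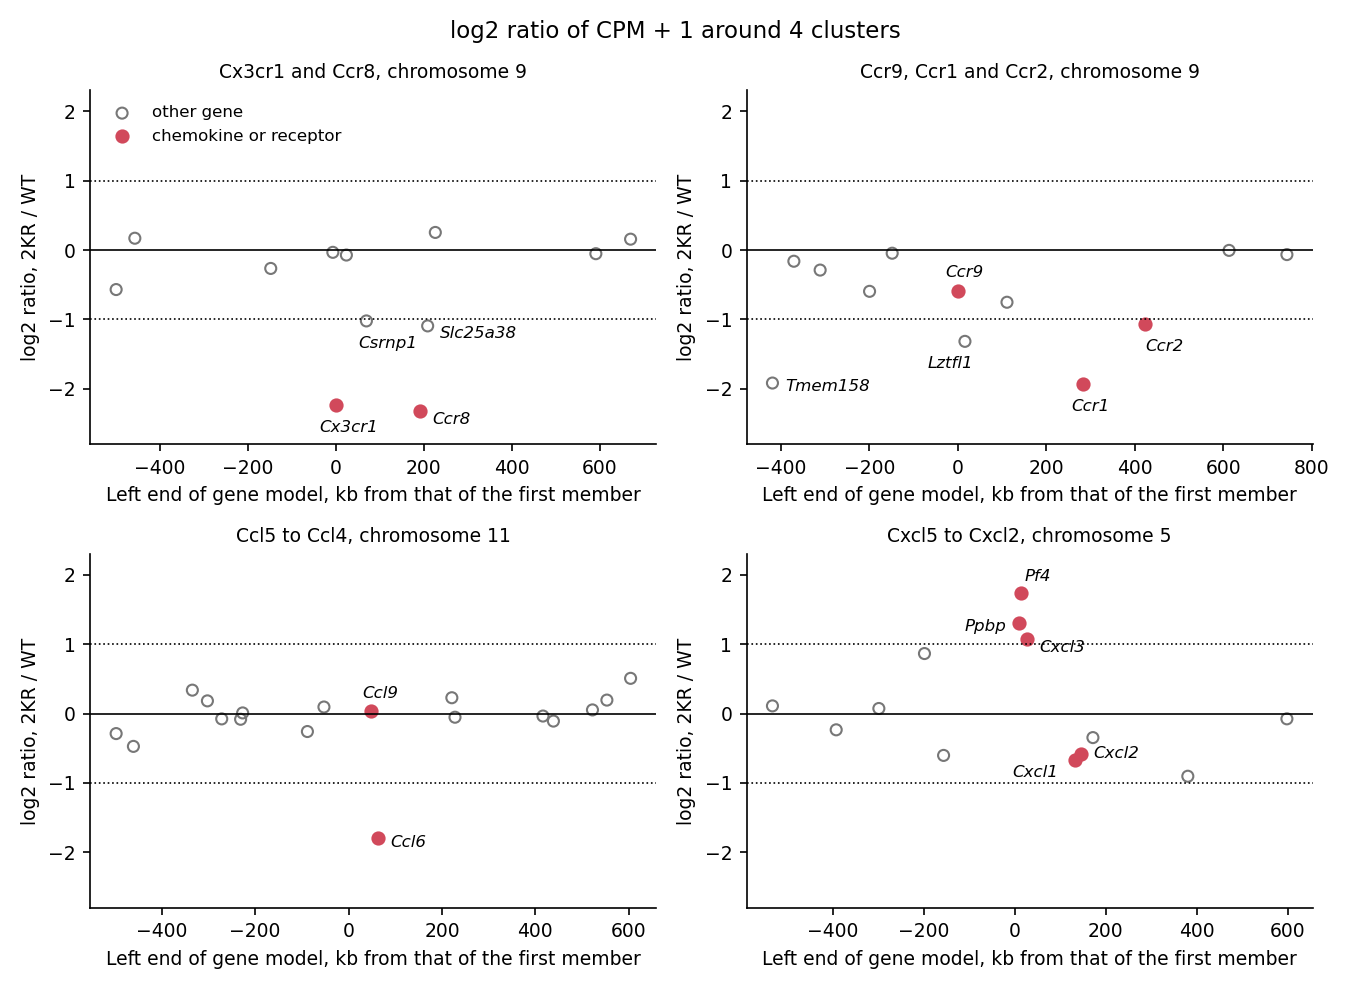
log2 ratio of CPM + 1, 2KR over WT, for tested genes within 500 kb of 4 clusters, plotted against the distance of the gene model's left end from that of the first member. Filled points are chemokines and receptors, open points are other genes, and dotted lines mark 2-fold. Ccl6 and Ccl9 stand apart from each other, as do Cxcl3, Pf4 and Ppbp from Cxcl1 and Cxcl2.

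The receptors held 4 of the 6 differences past the rule. Ccr8 (ENSMUSG00000042262, chromosome 9, 120092133 to 120094906), a receptor best known on T cells, had 108 counts in WT against 9 in 2KR, which is 6.18 and 0.437 CPM. It was 14.1-fold lower in 2KR (7.18 to 31.8). The interval is wide because the 2KR count is small, though its nearer end is still beyond 7-fold. Its neighbour Cx3cr1 (ENSMUSG00000052336, 119901616 to 120068283), the fractalkine receptor of monocytes and macrophages, had 1771 and 427 counts, or 101 and 20.7 CPM. Cx3cr1 was 4.89-fold lower (4.40 to 5.45). Only 23.8 kb separate the 2 models. Cx3cr1 is read on the minus strand and starts at the end facing Ccr8.

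Ccr1 (ENSMUSG00000025804, chromosome 9, 123962126 to 123968692), a receptor of inflammatory CC ligands on myeloid cells, had 104 and 17 counts, or 5.95 and 0.825 CPM. It was 7.21-fold lower in 2KR (4.29 to 12.8), and with a pseudocount of 5 its log2 ratio was -0.91, short of the rule. Ccr2 (ENSMUSG00000049103, 124101950 to 124113557), which draws monocytes out of the marrow, had 2066 and 1158 counts, or 118 and 56.2 CPM. It was 2.10-fold lower (1.96 to 2.26), just past the rule. The deposited FPKM values gave a 2.07-fold lower level, and adding 1 FPKM brought that log2 ratio to -0.90, short of the rule. Ccr2 shares 1.91% of its 50-base words with other transcripts, so most of its sequence is its own.

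Some other genes around these receptors were also past the rule. Of all tested models 4.56% were at least 2-fold lower in 2KR. Of 10 other tested genes within 500 kb of Cx3cr1 and Ccr8, 2 were at least 2-fold lower in 2KR, Csrnp1 (log2 ratio -1.02) and Slc25a38 (-1.09). Csrnp1 lies within the span of the Cx3cr1 model and shares no exonic base with it. Of 9 around the receptor cluster that holds Ccr9, Ccr1 and Ccr2, 2 were at least 2-fold lower, Tmem158 (-1.92) and Lztfl1 (-1.32), and the median of the 9 was -0.29. None was higher around either cluster. These 4 neighbours were chosen after their values were seen. With 9 or 10 genes to a cluster, 2 calls are too few to read as a local effect, which was not tested.

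These receptors are read from a bulk sample, in which fewer cells of a type and less RNA per cell cannot be told apart. Of 8 tested mast cell and basophil markers, 6 were at least 2-fold lower in 2KR, with Fcer1a at 0 in both libraries. The other way went 1, Mcpt8, which was 2.37-fold higher (2.27 to 2.46). Over all tested models 4.56% were lower and 2.66% higher. The monocyte and macrophage markers, a list without chemokine receptors, summed to 41.3 CPM in WT and 45.1 in 2KR, and of 4 tested 0 were called lower and Ly6c2 was called higher. Ms4a7 was at 0 in both, and Csf1r, the defining receptor of the monocyte lineage, had 10 and 12 counts. Their part in the lower Ccr1, Ccr2, Ccr8 and Cx3cr1 counts was not tested.

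The remaining tested receptors differed less than 2-fold. Cxcr4 (ENSMUSG00000045382, chromosome 1, 128588199 to 128592293), the receptor that retains progenitors in marrow, had 1296 and 1106 counts, or 74.1 and 53.7 CPM, and was 1.38-fold lower in 2KR (1.27 to 1.498). Cxcr2, the receptor of Cxcl1, Cxcl2 and Cxcl3, had 107 and 88 counts and was 1.43-fold lower (1.07 to 1.92). Ccr9, the homing receptor of the gut and thymus, had 87 and 61 counts and was 1.68-fold lower (1.198 to 2.37). However, 20.1% of its 50-base words occur in other genes, so its count is uncertain. Its model also spans Lztfl1, which lies on the opposite strand with 5184 and 2442 counts and shares no exonic base with it. On the other side Ccr4, a receptor of T helper and regulatory T cells, had 76 and 142 counts and was 1.59-fold higher (1.19 to 2.12). Ccr4 is thus the 1 receptor with an interval wholly above 1.

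The intervals of Ccr10 (36 and 30 counts), Ccr7 (18 and 24 counts) and Cxcr3 (10 and 11 counts) held 1, so no difference was detectable at this depth. Ccr3 and Cxcr5 had 1 count in one library and none in the other, Cxcr6 had 9 and 3 counts with an interval that held 1, and Ccr6, Cxcr1 and Xcr1 had none. Among the atypical receptors, Ackr3, which clears Cxcl12, had 100 and 61 counts and was 1.93-fold lower in 2KR (1.39 to 2.70), under the 2-fold rule. Ccrl2, which binds the attractant chemerin, had 87 counts in each library, a ratio of 0.849 (0.623 to 1.16). Ackr1, Ackr2 and Ackr4 had no count.

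Ligands and receptors were also set side by side. Of 35 known ligand and receptor pairs, 10 had at least 10 counts for both partners in WT and 10 in 2KR. Ccl25 with Ccr9 and Ccl27a with Ccr10 are among them, and the counts of Ccl25, Ccr9 and Ccl27a are uncertain. The pairs hold only genes taken by symbol. They leave out Pf4, Ppbp, Mif and Cklf, whose log2 ratios were 1.74, 1.31, 0.29 and -1.02. Ccl6 with Ccr1 was the 1 pair in which both partners were at least 2-fold lower in 2KR. Ccl9 acts on the same receptor and had a ratio near 1. For Cxcr2, the log2 ratio was -0.43 beside -0.58 for Cxcl2, -0.67 for Cxcl1 and 1.07 for Cxcl3. For Cxcl12 the log2 ratio was -0.79, beside -0.46 for Cxcr4 and -0.76 for Ackr3. Cx3cl1 was at -0.57 and Cx3cr1 at -2.24. Ccr2, with 118 CPM in WT, had no count of its ligands Ccl2, Ccl7 and Ccl12.

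**Figure D4:**
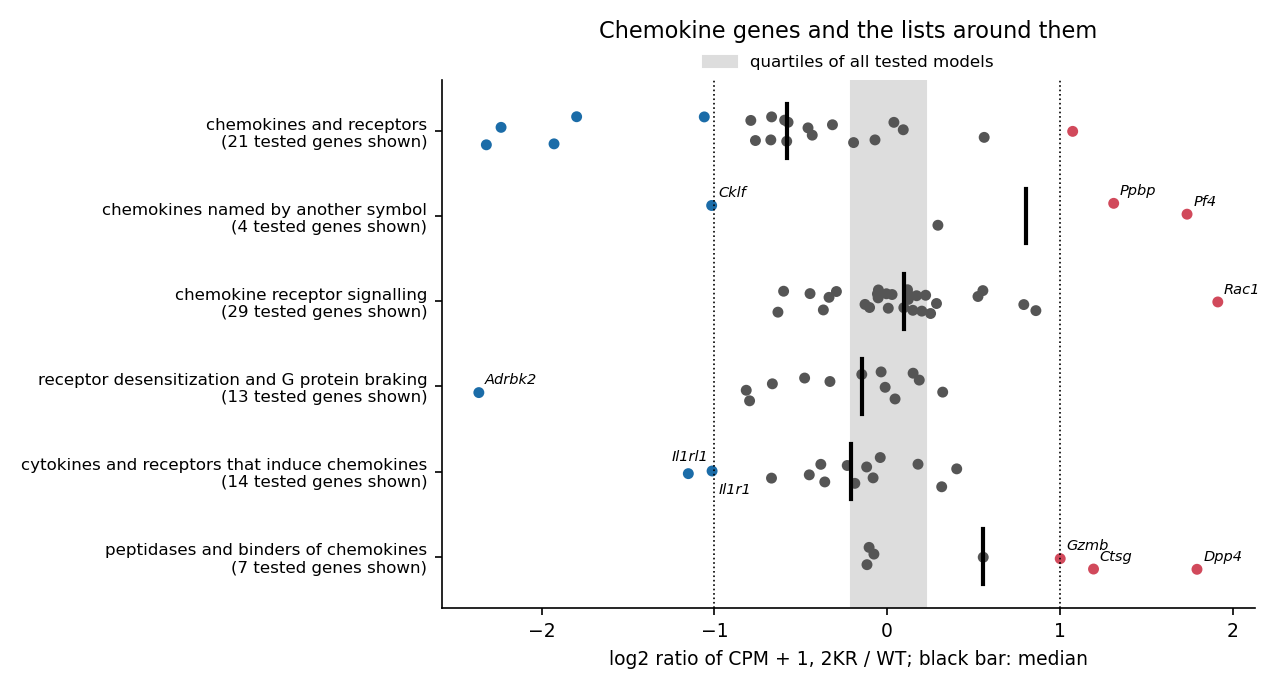
log2 ratio of CPM + 1, 2KR over WT, for 21 of the 22 tested chemokine and receptor genes and for tested genes of 5 related lists. Each point is a gene, the black bar is the list's median (over all 22 for the members), the grey band spans the quartiles of all tested models, and dotted lines mark 2-fold. Of the signalling genes 16 of 29 lie in the band, and 5 of the chemokine and receptor genes lie beyond the 2-fold line on the lower side.

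Genes that act with the receptors were described by lists. Of 29 tested genes of receptor signalling, 1 was past the 2-fold rule on the higher side in 2KR and 0 on the lower side, with a median log2 ratio of 0.10. Over all tested models 2.66% were higher and 4.56% lower, so 1 call of 29 is near these shares. The higher one was Rac1, a GTPase of actin assembly, with 2051 and 9167 counts, 3.79-fold higher (3.61 to 3.98). Rasgrp2, an activator of the integrin switch Rap1, was 1.83-fold higher (1.69 to 1.99), and Elmo1, a partner of the Dock exchange factors, was 1.73-fold higher (1.66 to 1.81). Rac2, the GTPase of blood cells, had 641 and 480 counts, a ratio of 0.635 (0.563 to 0.716). The subunit gene Gnai2 of the inhibitory G protein had 773 and 857 CPM, a ratio of 1.11 (1.08 to 1.13). Of the 29, 16 (55.2%) lay within the quartiles of all tested models, where 50% of all models lie by construction.

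Of 13 tested genes that switch off the receptors, 1 was at least 2-fold lower and 0 were higher, with a median of -0.15. The shares over all tested models were 4.56% lower and 2.66% higher, so 1 call is near them. The lower one was Adrbk2, which encodes the receptor kinase GRK3, with 3589 and 805 counts, 5.25-fold lower in 2KR (4.87 to 5.68). Rgs14 and Rgs2, which shorten G protein signals, had ratios of 0.551 (0.474 to 0.640) and 0.573 (0.537 to 0.611). The arrestin gene Arrb1 had a ratio of 0.628 (0.592 to 0.667).

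Of 14 tested cytokines and receptors that induce chemokines, 2 were at least 2-fold lower and 0 were higher, with a median of -0.21. The shares over all tested models were 4.56% lower and 2.66% higher. Il1rl1, whose product binds interleukin 33, had a 2.23-fold lower level (2.11 to 2.36), and Il1r1, the interleukin 1 receptor, was 2.11-fold lower (1.79 to 2.48). Il1r1 is just past the rule, and with library totals, a pseudocount of 5 or FPKM + 1 only Il1rl1 passed it. Il4ra had a ratio of 0.628 (0.616 to 0.641) and Il13 of 0.710 (0.581 to 0.867). Both Il33 and Ifng had no count.

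Of 7 tested peptidases and binders of chemokines, 3 passed the rule on the higher side and 0 on the lower, with a median of 0.56. The shares over all tested models were 2.66% higher and 4.56% lower. Dpp4, a peptidase that removes the first residues of Cxcl12 and other chemokines, had 212 and 917 counts and was 3.67-fold higher in 2KR (3.16 to 4.28). The granule proteases Ctsg and Gzmb were 2.29-fold (2.21 to 2.38) and 2.00-fold higher (1.97 to 2.04). Gzmb lay at the rule, and with DESeq2 size factors, centring or a pseudocount of 5 it fell short of it, which left 2 genes higher. Cd74, a receptor of the cytokine Mif, had 40 and 79 counts, a ratio of 1.68 (1.13 to 2.52). Mif itself had a ratio of 1.23 (1.15 to 1.32). The chemokine-like factor Cklf had 126 and 63 counts and was 2.36-fold lower (1.73 to 3.24), which also fell short of the rule with library totals, a pseudocount of 5 or FPKM + 1.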

How the data were processed

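RNA-seq was analysed in 1 library of WT and 1 of 2KR, grouped by the infection given in the labels. The submitters' processing notes name HISAT2 2.0.4 and GRCm38. How reads were counted, with which annotation and strand setting, is not stated there. The authors deposited, per the file headers, a raw count and an FPKM value for each of 34745 gene models. The ratio of the deposited FPKM values matched that of counts over library totals, to within 0.1%, for all 15403 models counted in both. Library totals were 17606168 counts (WT) and 20462011 (2KR).

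Counts were scaled with TMM in edgeR 4.0.16 (R 4.3.3), with factors of 0.9931 and 1.0070. Models at 1 CPM or more on average were tested by size alone: a log2 ratio of CPM + 1 of at least 1. The 95% intervals of a ratio come from the exact Clopper-Pearson method applied to its counts, and those of a level from the exact Poisson method. For 0 counts the limit was 3 counts. Gene models were matched to GENCODE M21 on GRCm38 by identifier (67 of 67 members, 53 with the same start and end). Of the 23 members with at least 10 counts, 4 overlap an exon of another gene, by at most 18.8% of their exonic bases. Promoters are from RefSeq. Python 3.11.15 with scipy 1.17.1, pandas 2.3.3, numpy 2.4.6, Biopython 1.88 and matplotlib 3.10.9 was used, and the size rule was tested on simulated data. Every member with at least 10 counts is named, except 1 that is not reported here or drawn in the plots but is counted in the totals. Of each related list up to 4 tested genes with the largest log2 ratio in size are named, and all 4 of the list of chemokines with other names. Gnai2, Csf1r, Ly6c2, Cd3e, Cd3g, Lck, Fcer1a, Ms4a7, Treml1, Il33, Ifng, Csrnp1, Slc25a38, Tmem158, Lztfl1 and members under 10 counts were picked with their values known. So were Cpa3, Mcpt8, Trac, Klrb1c, Pecam1, Pdgfrb and Elavl1. The members, lists and rules were chosen with earlier results of these data known. Alternatives were other pseudocounts, filters and scalings (DESeq2 1.42.0 size factors among them), FPKM + 1 in place of CPM + 1 and, added after seeing the data, exonic lengths of GENCODE M21 for levels per length.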

Additional observations from a re-analysis of the deposited data

How the results depend on the processing

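No paired analysis was possible because each form had 1 library. The main counts were 5 lower and 1 higher in 2KR, with a median log2 ratio of -0.58. With a pseudocount of 0.1, 8 members were lower, with Ccl27a, Cxcl1 and Cxcl12 added, against 5.64% lower of all tested models (4.56% in the main count). With a pseudocount of 5, 0 were higher, 4 were lower (2.38% of all tested models) and the median was -0.29. With FPKM + 1 in place of CPM + 1, 0 were higher, 4 were lower (2.26%) and the median was -0.24, where Cxcl3 and Ccr2 fell short through the added 1 and not through their FPKM folds. With a mean of at least 5 CPM, 3 of 11 tested members were lower, since Ccr8 and Ccr1 were not tested, against 3.57%. With no filter the median was 0.00. Ccr8 had a log2 ratio of -3.55 with a pseudocount of 0.1 and -1.04 with 5. Library totals, DESeq2 size factors and centring gave the same 6 genes. Cklf and Il1r1 were not past the rule with library totals, a pseudocount of 5 or FPKM + 1, and Gzmb was not with DESeq2 size factors, centring or a pseudocount of 5. No sign changed in any of the 23 members with at least 10 counts over 6 alternatives. This is not a check of the signs, since another pseudocount cannot change a sign. The scalings and FPKM could hardly do so, as they shifted all ratios together and by little. Differences of genes with few counts are limited by depth, and variation between cultures was not measured.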
